A study of Mus musculus with 6 samples.

Results

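Ephx2, the soluble epoxide hydrolase, is described here with 6 genes of arachidonic acid metabolism around it, in RNA sequencing of mouse granulosa cells, which nurse the oocyte inside the ovarian follicle and produce ovarian steroids. The 7 genes, of 54551 in the deposited tables, were taken by name. Ephx2 was chosen because it is among the most abundant mRNAs of these cells, so its rank is a description and not a finding. The others were chosen for their function: Ephx1 (microsomal epoxide hydrolase), Cyp2j6 and Cyp2j9 (cytochrome P450 enzymes of the CYP2J family) and Pla2g4a (cytosolic phospholipase A2). So were Ltc4s (leukotriene C4 synthase) and Alox5ap (the 5-lipoxygenase activating protein). There were 3 libraries labelled Gm12840-/-, of mice in which the long noncoding RNA gene Gm12840 was targeted, and 3 labelled wild type. All were C57BL/6 mice at postnatal day 21 given 5 IU of PMSG, which drives follicle growth, for 48 h, and 5 IU of hCG, which acts through the luteinizing hormone receptor, for 6 h. The labels state neither which part of Gm12840 was deleted nor whether each library came from a separate animal, and the spread behind each p-value is that among these samples alone.

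Arachidonic acid is released from membrane phospholipids by phospholipases A2 and is then oxidised along 3 main branches. Cyclooxygenases make prostaglandins, lipoxygenases make leukotrienes and hydroxy acids, and cytochrome P450 epoxygenases make epoxyeicosatrienoic acids. Epoxide hydrolases open the epoxides to diols: EPHX2 prefers fatty acid epoxides, and EPHX1 acts on many foreign epoxides and on some lipid ones. In the ovary, products of arachidonic acid take part in follicle rupture.

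Ephx2 lies on the minus strand of chromosome 14, from 66084374 to 66124500 in mm10, with 21 exon blocks that add up to 2484 nt. Its protein has a hydrolase domain, a lipid phosphatase domain and, in mouse, a C-terminal signal for import into peroxisomes. The coding sequence of its 3 annotated transcripts is 1662, 1608 and 1464 nt long. The last 60 bases, at chr14:66084682-66084741 on the minus strand, are shown because the 3 transcripts share them, so all of them keep the signal. Capitals mark the 3 codons before the stop codon, which encode that signal.
Ephx2: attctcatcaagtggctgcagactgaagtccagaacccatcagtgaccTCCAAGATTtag

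Cyp2j6 and Cyp2j9 are neighbours on the minus strand of chromosome 4, at 96516138 to 96553661 and 96568429 to 96591578. Their coding sequences are identical at 82.2% of aligned bases, and the longest identical run is 35 bases. The 60 coding bases around the haem-binding cysteine, a conserved stretch of P450 enzymes, are shown to illustrate how far reads can tell the 2 genes apart, with the 5 differing bases in capitals. They lie on 2 exons, for Cyp2j6 at chr4:96523703-96523727 and chr4:96518171-96518205, and for Cyp2j9 at chr4:96571935-96571959 and chr4:96568868-96568902.
Cyp2j6: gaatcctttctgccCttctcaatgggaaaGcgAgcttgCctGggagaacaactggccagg
Cyp2j9: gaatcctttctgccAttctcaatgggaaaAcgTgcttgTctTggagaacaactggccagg
No 50-base window of the Cyp2j9 transcript occurred in a transcript of another gene, nor did any of Pla2g4a. The share of such windows that did occur elsewhere was 0.494% for Ephx2, 1.70% for Ephx1 and 0.422% for Cyp2j6. It was 7.57% for Ltc4s and 6.96% for Alox5ap, all in antisense genes that overlap them (Gm26542 and Gm19719). The library kit does not mark strand, so reads in those overlaps cannot be told apart. The antisense genes themselves held 0 to 7 and 0 to 3 reads per library. Sequences and gene models are those of GENCODE M21 (GRCm38, the assembly of mm10), whose coordinates and exon lengths equalled the deposited ones for all 7 genes.

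Depth recovered from the deposited values was 16392098 to 17020427 reads in libraries labelled Gm12840-/- and 16609477 to 19465847 in those labelled wild type. Gm12840 itself did not separate the labels: libraries labelled Gm12840-/- held 5, 7 and 14 reads, against 17, 6 and 5 in those labelled wild type. Every direction below therefore rests on the labels. Libraries also stood apart across the labels: 83.2% of the variance lay on the first principal component, with Gm12840-/- replicates 1 and 2 and wild-type replicate 3 on one side and the remaining 3 libraries on the other. Granulosa markers were present, with all 8 of the list at a mean of at least 1 FPKM. Markers of other ovarian cells were present too, including all 6 of the oocyte and 6 of 7 of stroma and smooth muscle. In such bulk samples, fewer cells of a type and less RNA per cell cannot be told apart.

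Ephx2 stood at 3000.1, 2584 and 4978 FPKM in libraries labelled Gm12840-/- 1 to 3. It stood at 4658, 5019.5 and 2949 FPKM in libraries labelled wild type 1 to 3. FPKM is the authors' read number per kilobase of exon, divided by a total per library. That total was 1.12, 1.12 and 0.904 times the recovered reads in libraries labelled Gm12840-/- 1 to 3, and 0.894, 0.939 and 1.12 times in those labelled wild type 1 to 3. The values were high in Gm12840-/- replicate 3 and in wild-type replicates 1 and 2, and low in the remaining 3 libraries, so both labels held low and high libraries and the groups overlapped. Ephx2 ranked 3rd, 5th and 5th among 22058 protein-coding genes in libraries labelled Gm12840-/-, and 5th, 3rd and 3rd in those labelled wild type. It took 0.833%, 0.716% and 1.12% of all reads in libraries labelled Gm12840-/-, against 1.03%, 1.17% and 0.821% in those labelled wild type. The exact 95% binomial interval was 0.712% to 0.720% for the smallest share and 1.17% to 1.18% for the largest. Such intervals cover counting error only.

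Over the 6 libraries Ephx2 came 4th in mean level of the protein-coding genes, at 3865 FPKM. Above it were Inha, the inhibin alpha subunit, at a mean of 7449 FPKM, Rplp1, a ribosomal protein gene, at 4754 FPKM, and mt-Co1, a mitochondrially encoded subunit of cytochrome oxidase, at 4327 FPKM. Below it were the ribosomal protein genes Rpl41 and Rps15, at 2982 and 2963 FPKM, and Eef1a1, a translation elongation factor, at 2401 FPKM. Among these neighbours in rank, Ephx2 and Eef1a1 varied least: the highest library was 1.94 times the lowest for Ephx2 and 1.42 times for Eef1a1, against 2.72 times for Inha, 7.67 to 9.40 times for the 3 ribosomal protein genes and 26.6 times for mt-Co1.

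**Figure D1:**
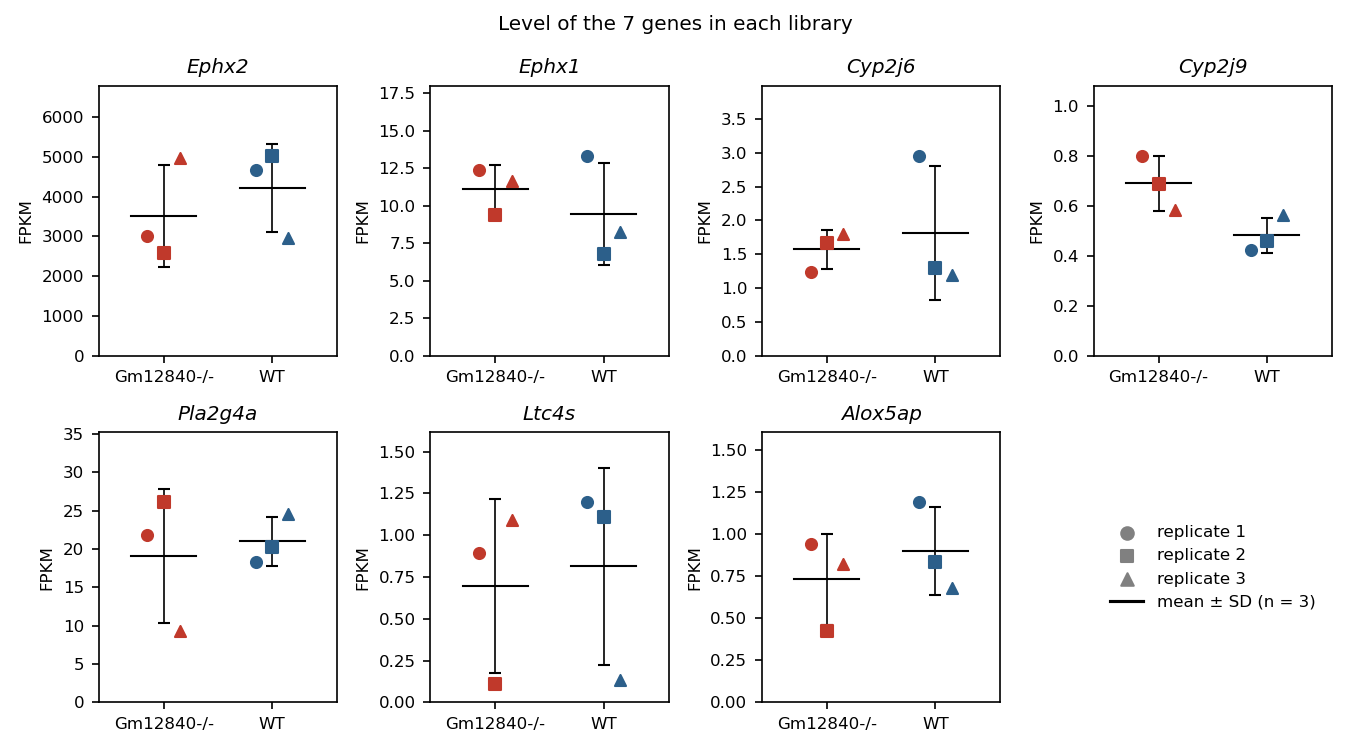
FPKM of the 7 genes in each library, in a panel per gene with its own linear axis from 0; symbols are replicates, and bars give the mean and SD of 3 libraries per label. The labels overlap in 6 panels and separate in that of Cyp2j9. Replicate 3 of each label is the highest or lowest of its group for Ephx2, Pla2g4a, Ltc4s, Cyp2j6 and Cyp2j9.

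The comparison is between the labels, since a loss of Gm12840 RNA was not seen. Ephx2 averaged 3521 ± 1279 FPKM in libraries labelled Gm12840-/- and 4209 ± 1106 FPKM in those labelled wild type (SD, n = 3 each). Its log2 fold change was -0.28. The 95% interval ran from -1.72 to 1.16, and limma on log2(FPKM + 1) gave it an adjusted p of 0.993. The difference was smaller than the spread within either label, and the interval reaches past 1 log2 unit in either direction. An adjusted p under 0.05 by limma was reached by 0 of the 12495 genes in the fit (0.0%), and an unadjusted p under 0.05 by 91 (0.728%). With limma-voom, fitted to recovered reads, the numbers were 0 and 75 (0.6%). Of the 7 genes described here 0 were called as well, and adjusted p-values ran from 0.958 to 0.993.

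Ephx2 was lower in the libraries with more mitochondrially encoded RNA. These genes took 1.52%, 4.19% and 0.146% of reads in libraries labelled Gm12840-/- 1 to 3, and 0.227%, 0.311% and 2.08% in those labelled wild type 1 to 3. The 3 libraries above 1% were those with Ephx2 at 3000.1 FPKM or less. Long genes also stood higher in the same libraries. The slope of log2 deviations on log2 gene length was 0.039, 0.19 and -0.12 in libraries labelled Gm12840-/-, and -0.13, -0.084 and 0.105 in those labelled wild type. The part of these library properties in the level of Ephx2 was not tested. With the slope as a covariate, the log2 fold change of Ephx2 was -0.055, and with values rescaled to recovered library totals it was -0.19. With replicate 3 of both labels left out, it was -0.80, with an adjusted p of 0.383 by limma, in a fit that called 27.6% of all genes, 11.3% as higher and 16.3% as lower. That choice sets libraries from the 2 sides of the first principal component against each other, so genotype and that difference cannot be told apart in it.

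**Figure D2:**
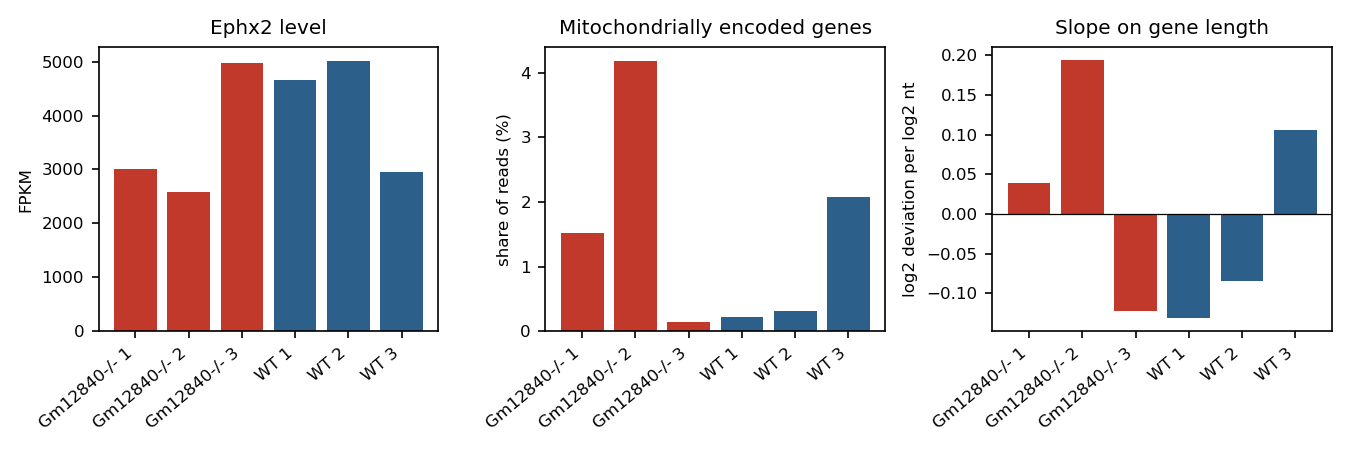
Ephx2 level in FPKM, the share of reads from mitochondrially encoded genes in percent, and the slope of log2 deviations on log2 gene length, with a bar per library (Gm12840-/- red, wild type blue). Gm12840-/- replicates 1 and 2 and wild-type replicate 3 have the lowest Ephx2 bars and the highest bars in the other panels.

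Genes whose levels followed Ephx2 most closely were sought among 4391 other protein-coding genes with a mean of at least 10 FPKM. Likeness was the root-mean-square difference of log2(FPKM + 1) values over the 6 libraries, after each gene was centred on its own mean. The 5 nearest were Mrpl18, a mitochondrial ribosomal protein gene (0.032), Arfgap1, a regulator of vesicle coats (0.044), Fdft1, the squalene synthase of cholesterol synthesis (0.044), Nprl2, a regulator of mTORC1 (0.051), and Cradd, an adaptor protein of cell death (0.052). The median over all 4391 genes was 0.38. Fdft1, for example, stood at 46.1, 37.2 and 71.7 FPKM in libraries labelled Gm12840-/- 1 to 3, and at 70.6, 74.0 and 45.8 FPKM in those labelled wild type 1 to 3. Like Ephx2, it was high in Gm12840-/- replicate 3 and wild-type replicates 1 and 2. The same measure was 0.49 for Ephx1 and 0.80 for Pla2g4a, so neither of these followed Ephx2 closely.

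Ephx1, the second epoxide hydrolase, stood at 12.4, 9.43 and 11.7 FPKM in libraries labelled Gm12840-/- 1 to 3, and at 13.3, 6.83 and 8.25 FPKM in those labelled wild type 1 to 3. Its highest and lowest libraries both carried the wild-type label, and the groups overlapped. Its log2 fold change was 0.26, with a 95% interval of -0.41 to 0.92 (adjusted p = 0.993 by limma). It was 0.51 without wild-type replicate 1 and 0.071 without wild-type replicate 2. The level of Ephx2 per length was 242, 274 and 427 times that of Ephx1 in libraries labelled Gm12840-/-, and 349, 735 and 358 times in those labelled wild type. This ratio within a library does not depend on how libraries were scaled. Its log2 averaged 8.25 ± 0.43 in libraries labelled Gm12840-/- and 8.82 ± 0.61 in those labelled wild type (SD, n = 3 each). The exact two-sided permutation p for this difference of -0.57 was 0.3, where 0.1 is the smallest possible. The difference was -0.21 without wild-type replicate 2, the library with the highest ratio.

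**Figure D3:**
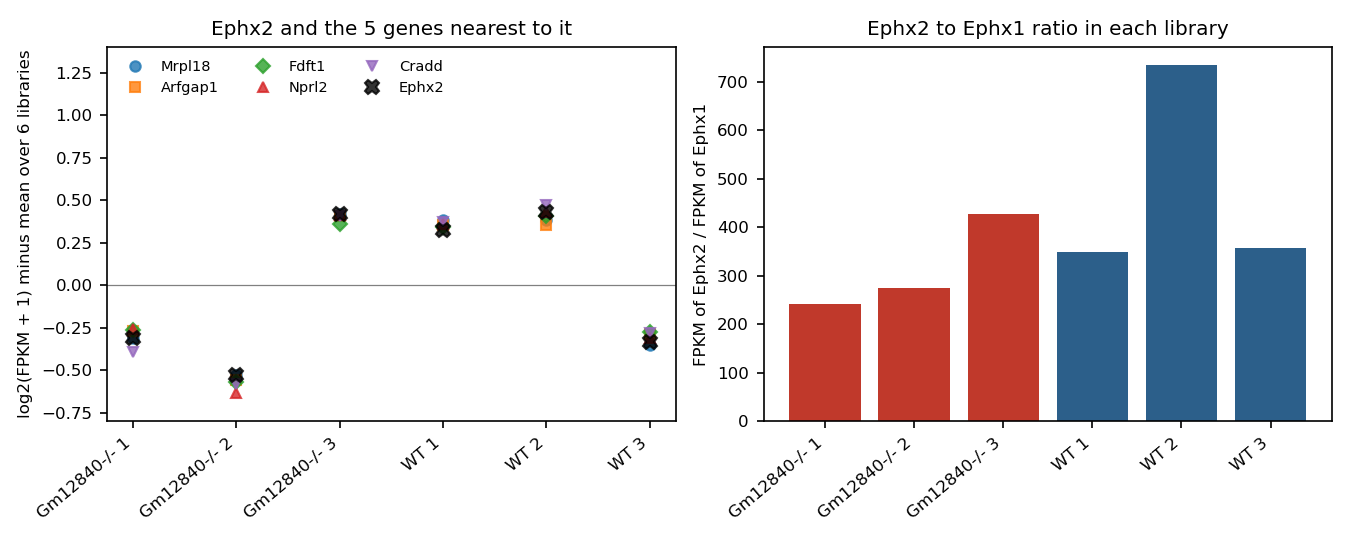
Left, log2(FPKM + 1) of Ephx2 and the 5 genes nearest to it, minus each gene's mean over 6 libraries; right, the ratio of Ephx2 to Ephx1 FPKM, with a bar per library (Gm12840-/- red, wild type blue). The 5 genes were picked for their likeness to Ephx2, so that they rise and fall with it follows from the choice. The ratio runs from 242 to 735 with both labels overlapping.

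The remaining epoxide hydrolases were far below Ephx2. Lta4h, which hydrolyses leukotriene A4 to leukotriene B4, averaged 7.01 ± 1.23 FPKM in libraries labelled Gm12840-/- and 7.03 ± 1.15 FPKM in those labelled wild type (SD, n = 3 each). Ephx3 and Ephx4 stayed at or under 0.256 and 0.158 FPKM in every library. Ephx2 thus made up 0.993 to 0.997 of the summed FPKM of the 5 epoxide hydrolase genes in the 6 libraries.

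Epoxygenases make substrates of EPHX2. The mRNAs of the 22 genes of the CYP2J and CYP2C families read here were scarce. Which of these enzymes make epoxides was not tested. Cyp2j6 stood at 1.25, 1.67 and 1.80 FPKM in libraries labelled Gm12840-/- 1 to 3, and at 2.95, 1.30 and 1.19 FPKM in those labelled wild type 1 to 3. The reads behind them numbered 84, 110 and 100 in libraries labelled Gm12840-/-, and 158, 79 and 94 in those labelled wild type. Wild-type replicate 1 stood above all other libraries, and its exact Poisson interval of 2.51 to 3.45 FPKM did not reach any of the other 5 values. The log2 fold change was -0.082 (95% interval -0.75 to 0.59, adjusted p = 0.993 by limma), and without wild-type replicate 1 it was 0.19.

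Cyp2j9 stood at 0.801, 0.688 and 0.584 FPKM in libraries labelled Gm12840-/- 1 to 3, on 50, 42 and 30 reads. In those labelled wild type it stood at 0.424, 0.461 and 0.563 FPKM, on 21, 26 and 41 reads. Every library labelled Gm12840-/- was above every library labelled wild type, the single gene of the 7 whose groups did not overlap. Among the 29484 genes with any reads, 2.27% were above in all libraries labelled Gm12840-/- in this way, and among the genes that passed the filter 1.45% were. In the closest pair of libraries the gap was within counting error, with exact Poisson intervals of 0.394 to 0.834 FPKM in Gm12840-/- replicate 3 and 0.404 to 0.764 FPKM in wild-type replicate 3. Cyp2j9 did not pass the filter, which asked for more than 1 FPKM in 3 or more libraries, and in the fit without that filter its log2 fold change was 0.19 (95% interval -0.15 to 0.53, adjusted p = 0.958 by limma). That value is damped by the pseudocount of 1: with a pseudocount of 0.1 it was 0.44, and by limma-voom 0.50.

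Of the 22 genes of the CYP2J and CYP2C families read here, Cyp2j6 was the only one with a mean of at least 1 FPKM. The list does not hold every gene of the 2 families, and Cyp2j7, for example, was not in it. Another 10 had 0 reads in all 6 libraries, among them Cyp2j5 and Cyp2c23, which allows up to 0.0288 RPM (reads scaled to library size) over the 104208514 reads. That limit covers counting error only. How reads that match several of these related genes were counted is not given, and shared windows were sought for the members only. The summed level of the 22 was 2.61, 2.91 and 2.81 FPKM in libraries labelled Gm12840-/-, and 3.77, 2.17 and 2.04 FPKM in those labelled wild type. Ephx2 exceeded that sum by a factor of 888 to 2315 across the libraries. The electron donors that these enzymes need were abundant by comparison. Por, the cytochrome P450 reductase, averaged 56.3 ± 11.3 FPKM in libraries labelled Gm12840-/- and 69.6 ± 20.9 FPKM in those labelled wild type. Its log2 fold change was -0.28 (adjusted p = 0.993 by limma), and -0.062 without wild-type replicate 1. Cyb5a, cytochrome b5, averaged 126 ± 23.3 and 149 ± 16.0 FPKM in libraries labelled Gm12840-/- and wild type.

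Pla2g4a, which releases arachidonic acid when calcium rises, was the second most abundant of the 7 genes. It stood at 21.8, 26.1 and 9.28 FPKM in libraries labelled Gm12840-/- 1 to 3, and at 18.3, 20.2 and 24.5 FPKM in those labelled wild type 1 to 3. Gm12840-/- replicate 3 was the lowest, on 913 reads against 1733 to 3421 in the other 5 libraries. The 3 libraries with the least Ephx2 were the 3 with the most Pla2g4a. The margin was narrow, at 21.8 FPKM in Gm12840-/- replicate 1 against 20.2 FPKM in wild-type replicate 2. These 3 libraries lie on the same side of the first principal component, which held 83.2% of the variance. How many other genes divide the libraries in this way was not counted. These 3 libraries were also the 3 with the most mitochondrially encoded RNA, whose part in the level of Pla2g4a was not tested. The log2 fold change was -0.24 (95% interval -1.18 to 0.70, adjusted p = 0.993 by limma), and without Gm12840-/- replicate 3 it was 0.18.

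Among the 20 other phospholipase A2 genes, Pnpla2, a triglyceride lipase with phospholipase activity, averaged 43.6 ± 14.5 FPKM in libraries labelled Gm12840-/- and 48.9 ± 9.65 FPKM in those labelled wild type. Pla2g15, the lysosomal enzyme, averaged 29.1 ± 13.3 and 27.6 ± 3.82 FPKM, and Pla2g12a, a secreted enzyme, 19.0 ± 9.24 and 19.9 ± 8.15 FPKM. Pla2g4c, a membrane-bound relative of Pla2g4a, stood at 5.82, 10.3 and 2.05 FPKM in libraries labelled Gm12840-/-, against 2.86, 3.81 and 7.94 FPKM in those labelled wild type. Like Pla2g4a it was highest in Gm12840-/- replicate 2 and lowest in Gm12840-/- replicate 3, and its log2 fold change was 0.17 (adjusted p = 0.993 by limma). Without replicate 3 of both labels it was 1.03 (adjusted p = 0.0354 by limma), in a fit that called 27.6% of all genes. In that fit, genotype cannot be told apart from the difference along the first principal component. Acsl4, which activates free arachidonic acid to its CoA ester, averaged 81.1 ± 18.5 and 75.5 ± 12.5 FPKM in libraries labelled Gm12840-/- and wild type. Lpcat3, which returns it to phospholipids, averaged 39.3 ± 6.50 and 36.9 ± 6.58 FPKM. Lpcat2, a related acyltransferase, had the smallest unadjusted p among the list genes that passed the filter, 0.201, with a log2 fold change of 0.30 (adjusted p = 0.993 by limma).

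Ltc4s, which joins leukotriene A4 to glutathione, stood at 0.896, 0.108 and 1.09 FPKM in libraries labelled Gm12840-/- 1 to 3, on 17, 2 and 17 reads. In those labelled wild type 1 to 3 it stood at 1.20, 1.11 and 0.136 FPKM, on 18, 19 and 3 reads. It was low in Gm12840-/- replicate 2 and wild-type replicate 3, and the groups overlapped. Ltc4s passed the filter with exactly 3 libraries over 1 FPKM, and its log2 fold change was -0.087 (95% interval -0.96 to 0.79, adjusted p = 0.993 by limma). That value turned to 0.19 without Gm12840-/- replicate 2, the library with 2 reads.

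Alox5ap, which presents arachidonic acid to 5-lipoxygenase, stood at 0.941, 0.424 and 0.823 FPKM in libraries labelled Gm12840-/- 1 to 3, on 25, 11 and 18 reads. In those labelled wild type it stood at 1.19, 0.833 and 0.678 FPKM, on 25, 20 and 21 reads. The groups overlapped, and in the fit without the filter its log2 fold change was -0.14 (95% interval -0.66 to 0.39, adjusted p = 0.958 by limma). It was -0.31 by limma-voom and -0.0045 without Gm12840-/- replicate 2. Alox5, the 5-lipoxygenase itself, stayed at or under 0.303 FPKM in every library. The leukotriene receptors also stayed low, with a summed level for the 4 genes of 0.130 to 0.837 FPKM in libraries labelled Gm12840-/- and 0.329 to 1.14 FPKM in those labelled wild type. Mgst3, a microsomal glutathione transferase, was higher than Ltc4s in level per length, at 25.1 ± 11.2 and 28.5 ± 13.2 FPKM in libraries labelled Gm12840-/- and wild type. Its relative Mgst2 averaged 1.67 ± 1.22 and 2.16 ± 2.07 FPKM. Dpep1, a dipeptidase that trims leukotriene D4, averaged 2.40 ± 1.25 and 1.56 ± 0.619 FPKM, with a log2 fold change of 0.38 (adjusted p = 0.993 by limma), and 0.091 without Gm12840-/- replicate 3.

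Leukocytes and mast cells are known sources of Ltc4s and Alox5ap, and their markers were read beside them. Of 11 leukocyte markers, 8 had a mean of at least 1 FPKM and none was at 0 in all libraries. Their summed level was 67.6, 43.4 and 58.2 FPKM in libraries labelled Gm12840-/- 1 to 3, and 64.8, 72.4 and 42.8 FPKM in those labelled wild type 1 to 3. It was lowest in Gm12840-/- replicate 2 and wild-type replicate 3, the libraries lowest in Ltc4s. Of the 11 markers, 6 were lowest in these libraries, among them Lyz2, which led the sum, and 5, including Ptprc, Cd68 and Adgre1, were not. Ptprc, the leukocyte antigen CD45, was highest in Gm12840-/- replicate 2 and stayed at or under 0.0747 FPKM. The 6 mast cell markers summed to 1.30, 0.273 and 1.48 FPKM in libraries labelled Gm12840-/-, and 1.09, 1.14 and 0.335 FPKM in those labelled wild type. Of these 6, 3 were lowest in the same libraries, none reached a mean of 1 FPKM, and Fcer1a had 0 reads in all 6 libraries. The part of these cells, or of these library properties, in the levels of Ltc4s and Alox5ap was not tested. For Ephx2, markers of 2 tissues known for it were at or near 0: the 5 adipocyte markers summed to at most 0.224 FPKM, and of the hepatocyte markers Alb, Ttr and Serpina1a stayed at or under 0.0758 FPKM. The fourth, Apoa1, stood at 37.3 to 301 FPKM in libraries labelled Gm12840-/- and 54.9 to 185 FPKM in those labelled wild type.

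In level per length, the 7 genes fell in the order Ephx2, Pla2g4a, Ephx1, Cyp2j6, Alox5ap, Ltc4s and Cyp2j9 by mean FPKM over the 6 libraries. The mean of Ephx2 was 193 times that of Pla2g4a, and the ranges of these neighbours did not overlap. Pla2g4a and Ephx1 overlapped, with Pla2g4a higher in 5 of 6 libraries. Ephx1 stood 6.09 times above Cyp2j6 and Cyp2j6 2.08 times above Alox5ap, both without overlap. The ranges of Alox5ap, Ltc4s and Cyp2j9, all under 1 FPKM on average, overlapped from one to the next. The spread over libraries was not particular to Ephx2: the SD of its log2(FPKM + 1) values was larger than that of 58.3% of the tested genes. Adding 1 damps the SD of genes of low level, so this share mixes level with spread.

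The wider list of oxylipin genes, which holds enzymes, receptors and carriers of these lipids, had 98 genes and 99 entries, since Dpep2 has 2. Of the 41 that passed the filter, 0 were called higher and 0 lower by limma, as in the 0.0% of all genes, and 0 had an unadjusted p under 0.05. The log2 fold change was positive for 14 and negative for 27, with a median of -0.091, beside a median of -0.035 over all tested genes, of which 45.0% were positive and 55.0% negative. Groups did not overlap in 0 of the 41, where 3.53% of all tested genes did not overlap. All 4 tested CYP4F genes and all 3 electron donors had negative values. Of the 11 tested genes of arachidonate activation and reacylation, 7 had positive values and 4 negative ones. None of these genes was called. Cyp4f18, a P450 enzyme that inactivates leukotriene B4 in mouse neutrophils, had the value of largest size among the 41, -0.63 (adjusted p = 0.993 by limma). It was -0.14 without wild-type replicate 1. Without replicate 3 of both labels it was -1.60 (adjusted p = 0.0206 by limma), in the fit that called 27.6% of all genes. There, genotype cannot be told apart from the difference along the first principal component. Cyp4f18 was not called with all 6 libraries. It stood at 7.90, 5.40 and 18.5 FPKM in libraries labelled Gm12840-/- 1 to 3, and 30.7, 15.5 and 6.92 FPKM in those labelled wild type 1 to 3. Like Ephx2, it was low in Gm12840-/- replicates 1 and 2 and wild-type replicate 3. The 5 neutrophil markers, of which 2 had a mean of at least 1 FPKM and Ly6g had 0 reads, summed to 1.73 to 7.99 FPKM in libraries labelled Gm12840-/- and 1.98 to 9.01 FPKM in those labelled wild type. The sum was lowest in Gm12840-/- replicate 2 and wild-type replicate 3, as were 2 of the 5 markers, and their part in the level of Cyp4f18 was not tested. Pparg, a nuclear receptor for fatty acid derivatives, averaged 48.3 ± 15.8 and 56.7 ± 16.0 FPKM in libraries labelled Gm12840-/- and wild type. Fabp5 and Fabp3, fatty acid carriers, averaged 14.9 ± 2.70 and 15.8 ± 8.11 FPKM in libraries labelled Gm12840-/-, and 19.6 ± 5.73 and 18.0 ± 12.5 FPKM in those labelled wild type.

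**Figure D4:**
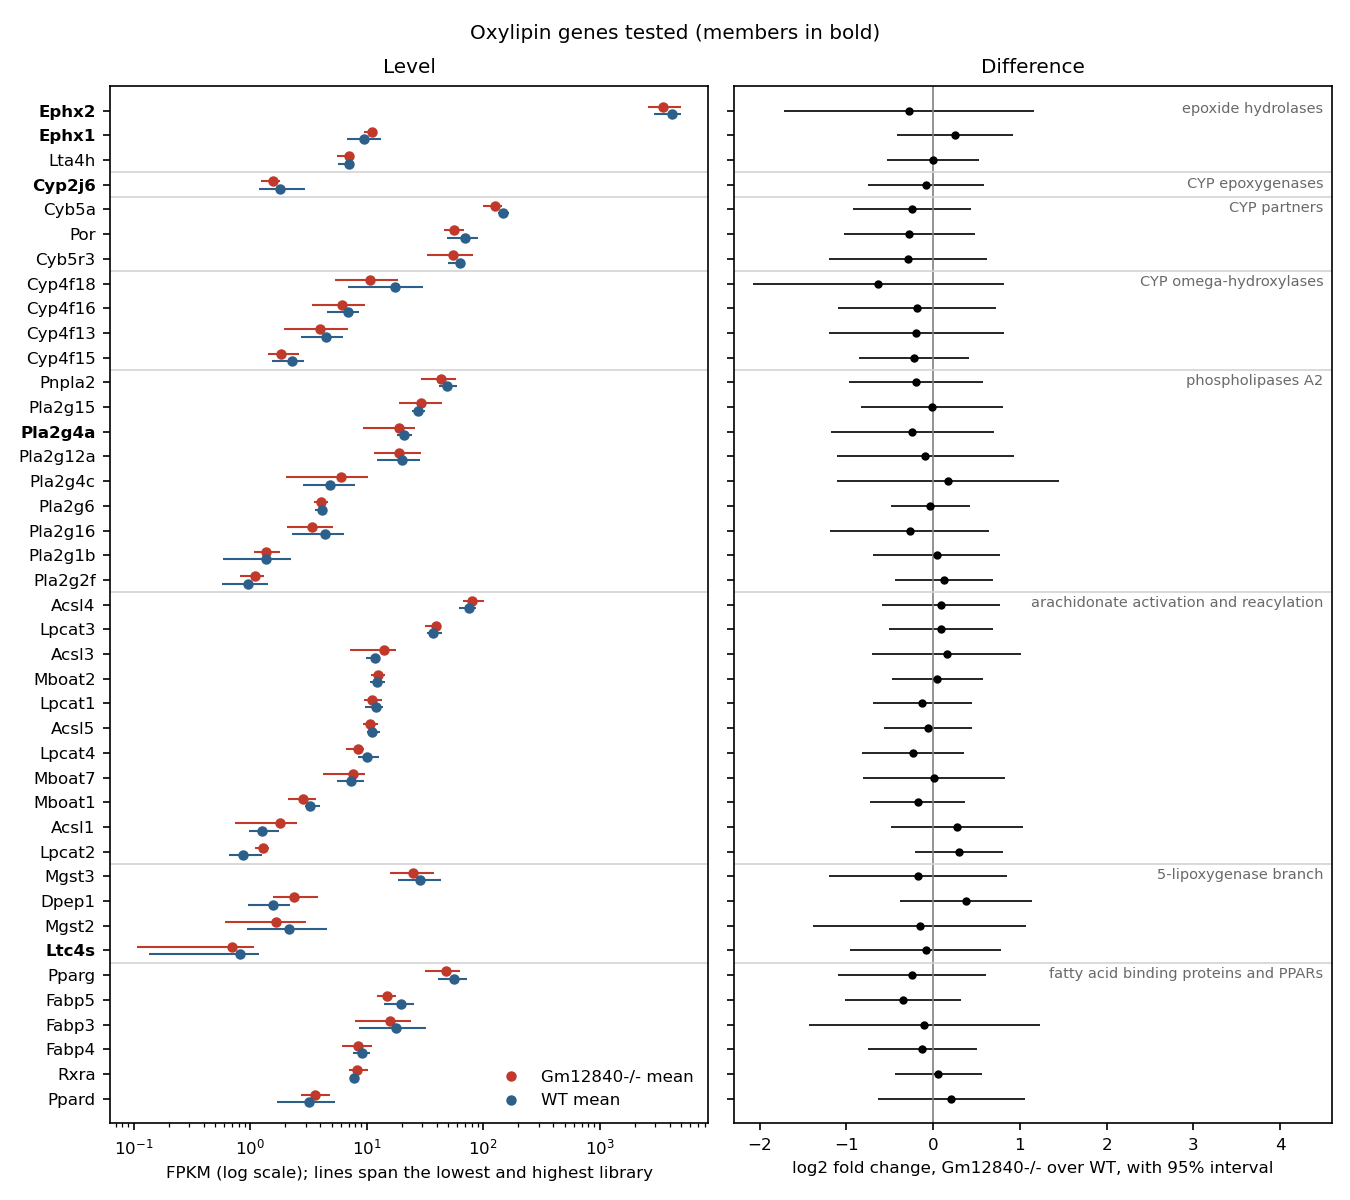
The 41 oxylipin genes tested, grouped by role; left, mean FPKM per label on a log axis with lines from the lowest to the highest library (Gm12840-/- above wild type); right, log2 fold change of Gm12840-/- over wild type with its 95% interval. Ephx2 lies far to the right of the other genes in level, and every interval crosses 0.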

How the data were processed

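RNA was measured in 6 granulosa cell libraries prepared from TruSeq reagents, per the labels' protocols. For each library the authors deposited FPKM by gene, per the file headers. The submitters' processing notes list HISAT2 2.0.5 and mm10. Which counter, annotation release and scaling were used is not given in the sources used here. FPKM times gene length gave whole reads in 100% of values within 0.01 reads, which gives the depth. Groups came from sample titles. The members and lists were chosen with earlier results of these data known.

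The main test was limma 3.58.1 in R 4.3.3 on log2(FPKM + 1), whose prior variance followed a trend with level and whose model held genotype alone. It was run over genes that exceeded 1 FPKM in 3 or more libraries, with two-sided p-values adjusted by Benjamini-Hochberg over all genes tested and a threshold of 0.05. Such a fold change understates the change of low genes. Members under the filter were read from a fit without it. Reads carry exact 95% intervals, Poisson or binomial, and 0 reads allow up to 3. Named genes were the members, list genes with a mean of at least 1 FPKM, the 3 nearest ranks on each side of Ephx2 and the 5 genes nearest to it in pattern. Alox5, Ephx3, Ephx4, Cyp2j5, Cyp2c23 and the receptors fall outside this rule and were named after their values were seen, as were the list genes given with a fold change. Libraries of 1 label differed by more than sampling noise, so none was taken for a copy. Alternatives were pseudocount, filters, scaling, limma-voom, a block for the replicate number, the length slope, and leaving out libraries. Figures were drawn with matplotlib 3.10.9 and sequences aligned with Biopython 1.88.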

Additional observations from a re-analysis of the deposited data

How the results depend on the processing

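Of the 14 alternatives, 12 called 0 genes with limma or limma-voom. The length slope as a covariate called 1, Mir1291, and leaving out replicate 3 of both labels, a choice made with earlier results known, called 3451. That last setting called 27.6% of all genes and 4 of the 41 oxylipin genes, Pla2g4c and Acsl1 higher and Cyp4f18 and Pla2g16 lower, and 0 of the 7 members. Adjusted p-values of the members by limma or limma-voom were 0.609 or more in the other alternatives. The signs of Ephx2, Ephx1, Cyp2j9 and Alox5ap held in every alternative that gave a value, and that of the Ephx2 to Ephx1 ratio in each of those run for it. The main fit called 0 genes, so that it called no value whose sign turned follows from this. The cause of the turns was not tested. Under the slope covariate, Cyp2j6 turned to 0.0038, Ltc4s to 0.16 and Pla2g4c to -0.24. Without replicate 3 of both labels, Pla2g4a turned to 0.30 and Dpep1 to -0.087. With 1 library left out, the log2 fold change ran from -0.56 to -0.086 for Ephx2, 0.071 to 0.51 for Ephx1, -0.23 to 0.19 for Cyp2j6, -0.51 to 0.18 for Pla2g4a, -0.39 to 0.19 for Ltc4s, -0.27 to 0.68 for Pla2g4c, -1.14 to -0.14 for Cyp4f18, -0.50 to -0.062 for Por and 0.091 to 0.55 for Dpep1. The ratio difference ran from -0.81 to -0.21. Library totals moved the median of all genes from -0.035 to 0.036 and left the sign of each member. The median of the oxylipin list ran from -0.15 to 0.021 with 1 library left out. With the replicate block, 0 genes were called. Deviations of same-numbered libraries correlated at -0.42, -0.67 and -0.89, and the closest library bore the same number for 0 of 6, so the numbers gave no sign of pairing. The filter at 5 FPKM gave no value for Cyp2j6, Cyp2j9, Ltc4s or Alox5ap. With 2 to 50 reads per library, changes of Ltc4s, Alox5ap and Cyp2j9 could be missed. Their intervals are on log2(FPKM + 1), which damps low genes, so the width understates the fold change that could be missed.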
